A study of Mus musculus with 6 samples.

Results

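The wild-type baseline described here is the sciatic nerve of WT mice of the strain labelled C57 Bl, taken at postnatal day 3. It was chosen by label alone and holds 3 of the 6 libraries of the series, called WT replicates 1, 2 and 3. The other 3 libraries, labelled CnpCre Actl6afl/fl, enter no value here. Libraries were made from about 150 ng of sciatic nerve RNA and sequenced on a HiSeq 4000. Whether nerves were pooled, whether replicates were separate litters, and whether the WT mice carried a floxed or Cre allele is not stated in the labels. With 1 group there is nothing to test, so every comparison below is a description of these 3 libraries, and their spread may in part be technical.

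A sciatic nerve in the first postnatal days is a tissue of several cell classes. Schwann cells, the glia of peripheral nerve, sort axons, and those that take large axons wrap them in compact myelin, a stack of membrane rich in a few structural proteins and in lipid. Fibroblasts lay down collagen around the fibres, perineurial cells form a sheath around each bundle, vessels and macrophages run between them, and the axons themselves belong to neurons whose cell bodies lie outside the nerve. In such a bulk sample a low level of a class can mean fewer cells or less RNA per cell, and these cannot be told apart.

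Levels are given as TPM, that is, counts divided by exonic length and scaled to 1000000 per library, so that genes can be compared per length. Libraries held 33084003, 34681637 and 36760296 counts. A mean of 1 TPM or more was reached by 17244 genes, of which 16290 reached it in every library and 13453 are protein-coding. Of all genes, 10178 had at least 10 TPM, 1655 at least 100 and 106 at least 1000. The 10 highest genes took 12.2 ± 0.475% of all TPM (SD, n = 3) and the 100 highest 30.1 ± 0.618%. Among the 30 highest genes, 17 are protein-coding and 11 are processed pseudogenes, and ranks below are therefore given among protein-coding genes. Protein-coding genes took 94.6% of counts but 75.4 ± 0.999% of TPM.

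The 5 genes that mark the tissue were all present in every library. Pmp22, a tetraspan membrane protein of compact myelin, read 24785, 26617 and 26537 TPM in WT replicates 1, 2 and 3. Col3a1, a fibrillar collagen of fibroblasts, read 5103, 5116 and 4955 TPM. Mbp, which compacts the cytoplasmic side of the myelin membrane, read 4942, 4443 and 4670 TPM. Each of these was nearly level over the libraries. Pmp22, Col3a1 and Mbp ranked 2, 4 and 7 among protein-coding genes, and 2, 9 and 12 among all genes. Sox10, a transcription factor of the Schwann lineage, read 278.6, 233.0 and 269.5 TPM and ranked 412. Egr2 (Krox20), the factor that drives myelin genes, read 126.3, 120.5 and 125.1 TPM and ranked 1042. Transcripts of the structural myelin proteins Pmp22 and Mbp thus lay far above those of both factors. Egr2 stood at 0.478 ± 0.0342 of the TPM of Sox10 (SD, n = 3). No other protein-coding gene had a range of library values that met that of Pmp22. For Mbp, 3 genes had an overlapping range, for Col3a1 2, for Sox10 161 and for Egr2 213, so the exact ranks of the factors are not separated from many neighbours.

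Upstream sequences of 3 of these genes are shown because they span the levels of the marker genes and include a myelin gene, its regulator and a fibroblast gene. They come from the RefSeq promoter table (GRCm38.p6), which has entries for Pmp22, Egr2 and Col3a1, and run 5′ to 3′ on the plus strand from 250 to 26 bases before the first listed start. Pmp22 lies at chr11:63128732-63128956, Egr2 at chr10:67535249-67535473 and Col3a1 at chr1:45311288-45311512. Capitals mark matches, on either strand, to 4 short motifs: the TATA-like sequence TATAAA, the CCAAT box, the GC box GGGCGG and the SOX-type sequence ACAAAG, which do not overlap one another here.
Pmp22: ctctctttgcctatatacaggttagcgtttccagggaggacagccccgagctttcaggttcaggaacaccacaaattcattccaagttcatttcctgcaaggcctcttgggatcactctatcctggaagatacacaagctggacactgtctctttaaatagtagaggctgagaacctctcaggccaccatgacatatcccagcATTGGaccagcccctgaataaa
Egr2: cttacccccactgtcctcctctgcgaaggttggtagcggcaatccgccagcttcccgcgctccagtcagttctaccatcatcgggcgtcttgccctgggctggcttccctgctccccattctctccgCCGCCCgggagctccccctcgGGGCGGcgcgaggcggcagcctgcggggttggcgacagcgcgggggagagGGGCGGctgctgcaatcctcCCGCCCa
Col3a1: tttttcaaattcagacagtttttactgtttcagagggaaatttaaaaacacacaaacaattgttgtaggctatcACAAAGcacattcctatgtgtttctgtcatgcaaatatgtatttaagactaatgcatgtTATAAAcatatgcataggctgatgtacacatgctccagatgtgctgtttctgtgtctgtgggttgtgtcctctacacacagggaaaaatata
The Pmp22 window holds 1 CCAAT box, read on the other strand, and none of the other motifs. The Egr2 window holds 4 GC boxes and the Col3a1 window 1 TATA-like and 1 SOX-type sequence. Over all 32851 entries of the table, the same window holds a CCAAT box in 31.6%, a GC box in 29.2%, a SOX-type sequence in 15.1% and a TATA-like sequence in 10.7%. Over the 14258 entries of genes at 1 TPM or more, the shares were 32.4% for the CCAAT box, 49.2% for the GC box, 11.5% for the SOX-type and 5.70% for the TATA-like sequence. A match is a description of the letters and not a binding site. Counts were made per gene, so the share of each start of a gene that has several, such as Pmp22 with 4 entries, is not known.

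**Figure D1:**
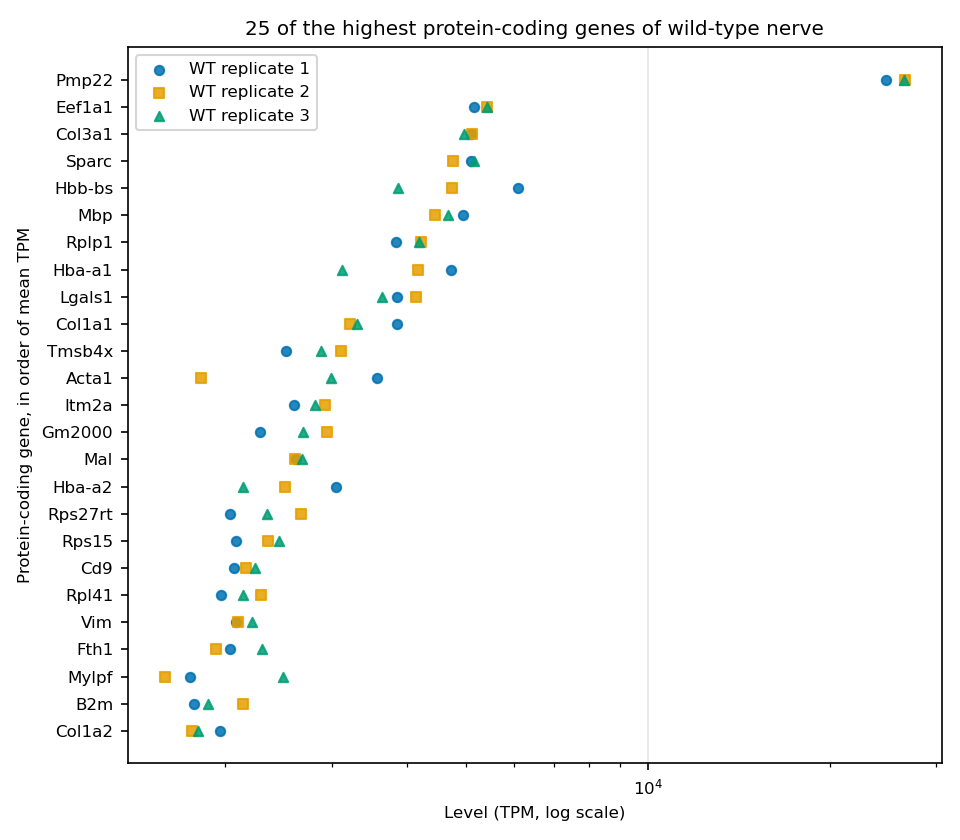
TPM (log axis) of 25 of the 30 highest protein-coding genes in the 3 WT libraries, 1 symbol per library. Pmp22 stands at 24785 TPM or more in every library, while Eef1a1 averages 5326 TPM. Acta1, Hbb-bs and Mylpf show the widest gaps between libraries among the genes drawn.

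Compact myelin genes stood among the highest of the nerve. The list held 8 genes, all above 100 TPM, of which 6 ranked among the 100 highest protein-coding genes. Its median was 2396 TPM, beside 14.5 TPM over all genes at 1 TPM or more. Pmp22 was 5.56 ± 0.499 times Mbp in TPM (SD, n = 3), lowest in WT replicate 1 and highest in WT replicate 2. Mal, a proteolipid of myelin membrane traffic, averaged 2633 ± 42.1 TPM (SD, n = 3) and the tetraspanin gene Cd9 2158 ± 87.7 TPM. Ranked by counts without length, Mbp would rank 4 in place of 7, so the order of long and short transcripts depends on the scale. Pmp2, a fatty acid binding protein of myelin, averaged 279 ± 23.5 TPM, but 86.9% of its exonic bases lie in exons of the overlapping gene Gm37389, and its count is uncertain.

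Genes of non-compact myelin, the cytoplasmic channels and outer collar of the sheath, had the next highest median among the Schwann lists. All 16 exceeded 1 TPM and 12 exceeded 100 TPM, with a median of 240.0 TPM. Cnp, an enzyme and scaffold of the cytoplasmic channels, averaged 1176 ± 38.6 TPM (SD, n = 3). Prx (periaxin), which links the outer sheath to the basal lamina, read 1279, 1042 and 1115 TPM. Its partners in that complex were lower, with Dag1 (dystroglycan) at 309 ± 39.5 TPM, Utrn at 153 ± 18.3 TPM and Drp2 at 121 ± 11.9 TPM. The adhesion gene Cadm4 averaged 882 ± 71.9 TPM and Mag, the adhesion protein that faces the axon, 295 ± 16.4 TPM. Of the 2 connexin genes in the list, Gjc3 averaged 630 ± 39.2 TPM and Gjb1, the gap junction protein of the mature channels, 59.9 ± 3.54 TPM. Gpr37, a receptor of the myelinating cell, was the lowest at 8.68 ± 0.854 TPM.

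Node and paranode genes were unevenly present. Those made by the Schwann cell ranked highest: Ezr (ezrin, of the microvilli) averaged 153 ± 4.59 TPM and Gldn (gliomedin), which gathers sodium channels at the node, 122 ± 5.68 TPM (SD, n = 3). Nfasc, whose isoforms serve glia and axon, averaged 22.5 ± 3.75 TPM, and isoforms were not separated. Among genes known from the axonal side, Nrcam averaged 34.1 ± 1.69 TPM, Ank3 (ankyrin G) 13.5 ± 1.31 TPM and Cntn1 (contactin) 11.4 ± 1.08 TPM, and cell types were not separated. Lower still were Cntnap1 at 2.64 ± 0.0490 TPM and the sodium channel gene Scn8a at 1.597 ± 0.113 TPM.

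Lineage markers of Schwann cells were all above 1 TPM, 12 of 12, with a median of 181 TPM. Ednrb, an endothelin receptor gene of the crest lineage, averaged 492 ± 33.7 TPM, Art3 458 ± 28.1 TPM and Itga6, an integrin subunit for laminin, 367 ± 21.7 TPM (SD, n = 3). S100b read 304.7, 341.3 and 362.8 TPM. Erbb3, the receptor that binds axonal neuregulin, averaged 157 ± 11.5 TPM, 3.54 ± 0.289 times its signalling partner Erbb2 in TPM. Fabp7, a marker of precursors, was the lowest at 3.15 ± 0.607 TPM. Genes of central glia, in contrast, stayed at or under 4.05 TPM, and Olig2, a factor of oligodendrocytes, had 0 counts in all 3 libraries. At this depth a count of 3, the limit that 0 counts allow, is 0.244 to 0.283 TPM for a gene of 1000 bases.

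The regulators of the promyelinating step were all measured, 16 of 16, at moderate levels with a median of 57.9 TPM. Wwtr1 (TAZ), a co-activator, averaged 191 ± 3.52 TPM and its partner Tead1 104 ± 11.7 TPM, while Yap1 averaged 38.4 ± 1.44 TPM (SD, n = 3). Pou3f1 (Oct6), the factor of promyelinating cells, read 110.5, 87.0 and 103.5 TPM, so Sox10 stood at 2.60 ± 0.0792 times its TPM. The Egr2 co-regulators Nab1 and Nab2 averaged 51.0 ± 3.70 and 34.8 ± 4.61 TPM, although 42.2% of the exonic bases of Nab2 lie in exons of another gene. Hdac2 averaged 138 ± 12.3 TPM and Chd4 104 ± 12.1 TPM. Zeb2, a repressor needed for myelination, averaged 64.7 ± 3.68 TPM.

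Genes of immature, Remak and repair Schwann cells were lower and mixed, with 13 of 18 above 1 TPM and a median of 28.1 TPM. Id2, an inhibitor of differentiation factors, averaged 278 ± 18.9 TPM, and Ngfr (p75), a receptor of immature cells, read 136.1, 110.9 and 102.6 TPM. Jun averaged 49.8 ± 3.58 TPM, Gap43 50.8 ± 6.46 TPM, Ncam1 38.4 ± 3.76 TPM and Sox2 31.3 ± 4.79 TPM (SD, n = 3). The other 5 genes were under 1 TPM, among them Gfap at 0.470 ± 0.0608 TPM, the repair factor gene Gdnf at 0.461 ± 0.114 TPM and Pax3 at 0.0662 ± 0.0249 TPM. Egr1, an immediate early gene, read 16.1, 8.23 and 9.02 TPM and was highest in WT replicate 1.

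Enzymes that make myelin lipid were present throughout. All 22 cholesterol synthesis genes and all 18 genes of fatty acid and sphingolipid synthesis exceeded 10 TPM, with medians of 97.9 and 175 TPM. Scd2, a desaturase, averaged 1223 ± 49.0 TPM (SD, n = 3) and ranked 46. Ugt8a, which makes the galactosylceramide of myelin, read 963.8, 981.9 and 983.9 TPM and ranked 56. Hmgcs1, an early enzyme of the sterol pathway, averaged 872 ± 29.8 TPM. Among enzymes of later steps, Dhcr7 averaged 26.1 ± 1.91 TPM and Tm7sf2 24.8 ± 2.88 TPM. In neither list did a gene differ by 1.5-fold or more between its highest and lowest library, beside 2.79% of all genes at 10 TPM or more. Nsdhl, a sterol dehydrogenase, read 144.9, 144.0 and 143.4 TPM.

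**Figure D2:**
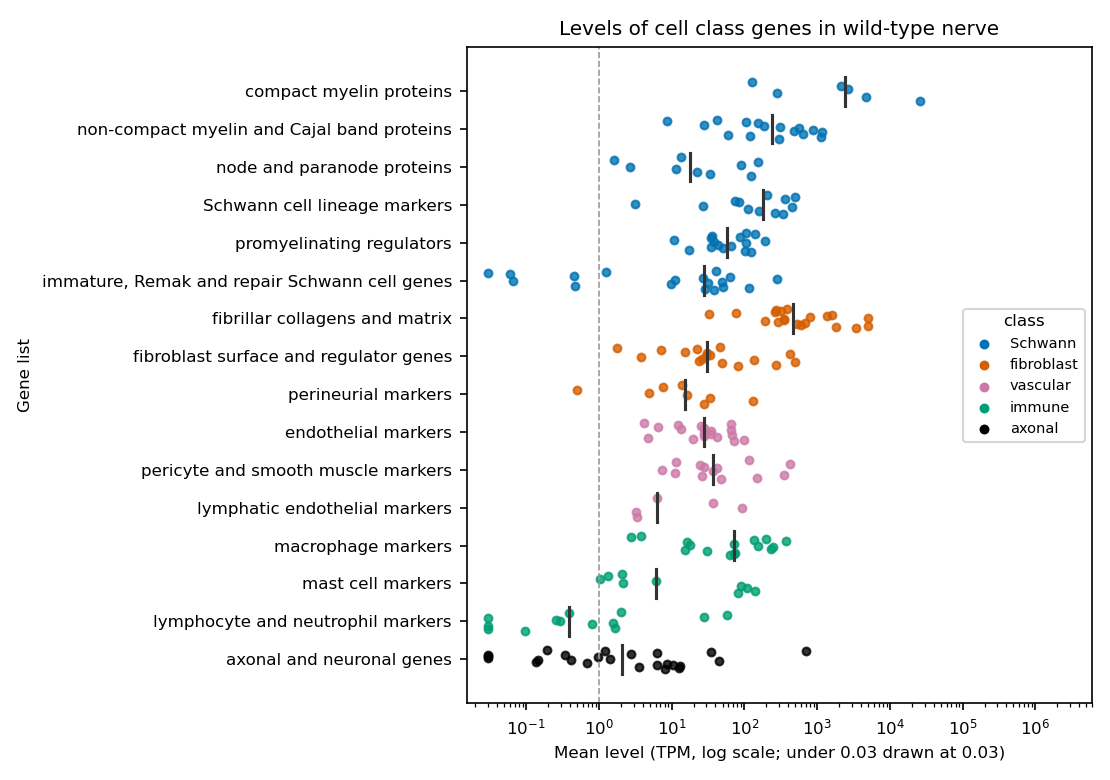
Mean TPM over the 3 WT libraries (log axis) of genes in the 16 lists of the Schwann, fibroblast, vascular, immune and axonal classes, 1 point per gene. Bars mark the medians of all genes found in each list, including a few that are not drawn, and the dashed line marks 1 TPM. Compact myelin has the highest median, 2396 TPM, and axonal genes lie mostly under 15 TPM apart from Sncg at 711 TPM.

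Fibroblast genes formed the class with the highest median, 133 TPM over 45 genes, beside 84.5 TPM over the 80 Schwann genes, 28.2 TPM over 36 vascular, 15.9 TPM over 38 immune and 2.09 TPM over 24 axonal genes. Summed TPM put the Schwann class first, at 79774, 74573 and 79752, and the fibroblast class next, at 25940, 25138 and 25110. Their ratio was 3.07 ± 0.105 (SD, n = 3). These sums depend on which genes a list holds, and they are shares of RNA, not of cells.

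The matrix genes supplied most of the sum of the fibroblast class. Cell types were not separated, so this sum is not that of fibroblasts alone. All 20 exceeded 10 TPM and 18 exceeded 100 TPM. Sparc, a collagen-binding glycoprotein, read 5089, 4758 and 5160 TPM and ranked 5, next to Col3a1 at 4 with an overlapping range. Col1a1 read 3850, 3218 and 3302 TPM and Col1a2 1963, 1759 and 1804 TPM. The ratio of their TPM was 1.87 ± 0.0759 (SD, n = 3), and it rests on the length divisor. Exonic length was 6563 bases for Col1a1 and 12426 bases for Col1a2. Counts in WT replicates 1, 2 and 3 were 268064, 246110 and 266965 for Col1a1. For Col1a2 the counts were close to these, at 258699, 254651 and 276071. Whether the RNA follows the 2 to 1 ratio of their products in type I collagen was not tested. Postn (periostin) averaged 1576 ± 113 TPM, Dcn (decorin) 1363 ± 97.4 TPM and Fn1 (fibronectin) 347 ± 27.2 TPM. Surface and regulator genes of fibroblasts were lower, with a median of 30.2 TPM. Clec3b averaged 490 ± 42.3 TPM, Ly6a 430 ± 69.5 TPM, Dpt 275 ± 50.4 TPM and the growth factor receptor gene Pdgfra 81.9 ± 2.54 TPM. Of 8 perineurial genes, the tight junction gene Cldn1 led at 133 ± 5.95 TPM and Mpzl2, at 0.508 ± 0.0803 TPM, was the 1 under 1 TPM.

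Basal lamina genes, made by Schwann cells and by other cells, were high: 11 of 13 exceeded 100 TPM. Itgb1, the shared laminin receptor subunit, averaged 1023 ± 38.3 TPM (SD, n = 3). Col4a1 averaged 679 ± 64.0 TPM, Lamc1 576 ± 70.6 TPM and Lamb1 544 ± 33.4 TPM. Among laminin alpha chains, Lama4 averaged 205 ± 18.6 TPM, Lama2, the main alpha chain of the mature endoneurium, 167 ± 25.4 TPM and Lama5 10.8 ± 1.62 TPM.

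Vascular genes were all above 1 TPM, 36 of 36, and summed to 2129, 2006 and 2073 TPM. Endothelial genes ran up to 97.2 ± 8.81 TPM for Cdh5, the cadherin of endothelial junctions (SD, n = 3). Pecam1 averaged 71.2 ± 5.69 TPM and Cldn5, a claudin of tight endothelium, 67.0 ± 6.55 TPM. Kdr, the main receptor for vascular growth factor, averaged 19.8 ± 1.95 TPM and Abcb1a, an efflux pump of barrier endothelium, 4.19 ± 0.556 TPM. Among pericyte and smooth muscle genes, Mcam averaged 425 ± 29.6 TPM, Acta2 352 ± 42.4 TPM and Rgs5 150 ± 4.66 TPM. Mcam is also made by cells outside vessels. Tagln, a smooth muscle gene, read only 10.3, 10.1 and 12.5 TPM, and its count is uncertain because 67.9% of its exonic bases lie in exons of an overlapping gene.

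Immune genes summed to 2063, 2432 and 2195 TPM, highest in WT replicate 2, with 30 of 38 above 1 TPM. Macrophage genes led. Lyz2 (lysozyme) averaged 374 ± 29.8 TPM, and the complement genes C1qb, C1qa and C1qc 245 ± 13.8, 228 ± 16.5 and 154 ± 10.2 TPM (SD, n = 3). Csf1r, the receptor that macrophages need, averaged 73.3 ± 1.79 TPM, and Mrc1, a mannose receptor, 72.7 ± 5.48 TPM. Mast cell genes were uneven, with a median of 6.10 TPM over 9 genes. The proteases were led by Cma1 at 141 ± 10.4 TPM, Mcpt4 at 108 ± 8.74 TPM and Tpsb2 at 91.2 ± 9.41 TPM, while the protease gene Tpsab1 averaged 2.12 ± 0.372 TPM and the receptor gene Fcer1a 1.05 ± 0.0798 TPM. Among T cell genes, Cd4 averaged 1.64 ± 0.245 TPM and Cd3e 0.0948 ± 0.0580 TPM, and Gzmb had 0 counts in every library.

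Axonal and neuronal genes were the lowest class, with 14 of 24 above 1 TPM and sums of 867, 915 and 822 TPM. Cell types were not separated, and Sncg (gamma-synuclein), known from sensory and motor axons, gave most of those sums, at 701.5, 760.9 and 670.4 TPM. Without it, the other 23 genes summed to 165.3, 154.4 and 151.5 TPM. Uchl1, an abundant neuronal ubiquitin hydrolase, averaged 45.2 ± 4.49 TPM and the axonal motor gene Kif5a 34.8 ± 4.96 TPM (SD, n = 3). The neurofilament genes Nefh, Nefl and Nefm averaged 12.9 ± 1.66, 12.7 ± 1.76 and 3.56 ± 0.720 TPM. Counts of Nefl and Nefm are uncertain, because 32.8% and 19.2% of their exonic bases lie in exons of the other. Genes of neuron cell bodies and transmitters were close to 0: Rbfox3 averaged 0.143 ± 0.0210 TPM, Isl1 0.412 ± 0.0638 TPM, and Chat, Tac1 and Scn10a each had a count in 1 library only. Nrg1, the neuregulin ligand that acts from the neuron, averaged 0.196 ± 0.0147 TPM. Among factors made locally, Igf1 averaged 131 ± 8.17 TPM, Gas6 112 ± 5.72 TPM and Dhh, a hedgehog ligand of Schwann cells, 83.4 ± 5.70 TPM, with its receptor Ptch1 at 49.8 ± 1.38 TPM.

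The subunits of the BAF chromatin remodelling complex, to which the gene altered in the other 3 libraries belongs, were measured at moderate levels, with a median of 32.2 TPM. The catalytic subunit gene Smarca4 (BRG1) read 51.9, 40.1 and 40.5 TPM, 2.51 ± 0.309 times Smarca2 (BRM) in TPM. Actl6a (BAF53a), the actin-like subunit of dividing and glial cells, read 39.2, 40.9 and 35.3 TPM. Actl6b, its counterpart in neurons, averaged 0.0816 ± 0.00622 TPM (SD, n = 3). Of 16 genes in the list, Actl6b was the 1 under 1 TPM. Cell cycle genes were also present, 21 of 21 above 10 TPM, with Ccnd1 (cyclin D1) at 212 ± 24.9 TPM, Mki67 at 122 ± 13.5 TPM and Cdkn1b (p27), an inhibitor, at 181 ± 10.1 TPM.

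The 3 libraries were close to one another. Pearson's r of log2(TPM + 1) across the 17244 genes was 0.988, 0.988 and 0.990 for the 3 pairs, a description across genes, which are not independent replicates. The common biological coefficient of variation (edgeR's estimate of spread beyond counting) was 9.17% over 17735 genes. A gene was counted as past 1.5-fold where its highest library was at least 1.5 times its lowest. Of the genes at 1 TPM or more, 2395 (13.9%) were past it, and of those at 10 TPM or more, 284 (2.79%). The former are mostly low genes, for which counting alone is a large part: the median coefficient of variation was 13.2% from 1 to 10 TPM, where counting gives 10.2%, and 5.21% from 100 to 1000 TPM, where counting gives 1.38%. Among class members at 10 TPM or more, 1 of 68 Schwann genes (Egr1), 0 of 39 fibroblast, 0 of 29 vascular, 2 of 20 immune and 0 of 6 axonal genes were past 1.5-fold, to be read beside 2.79%. Of the 8 compact myelin genes, 0 were.

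**Figure D3:**
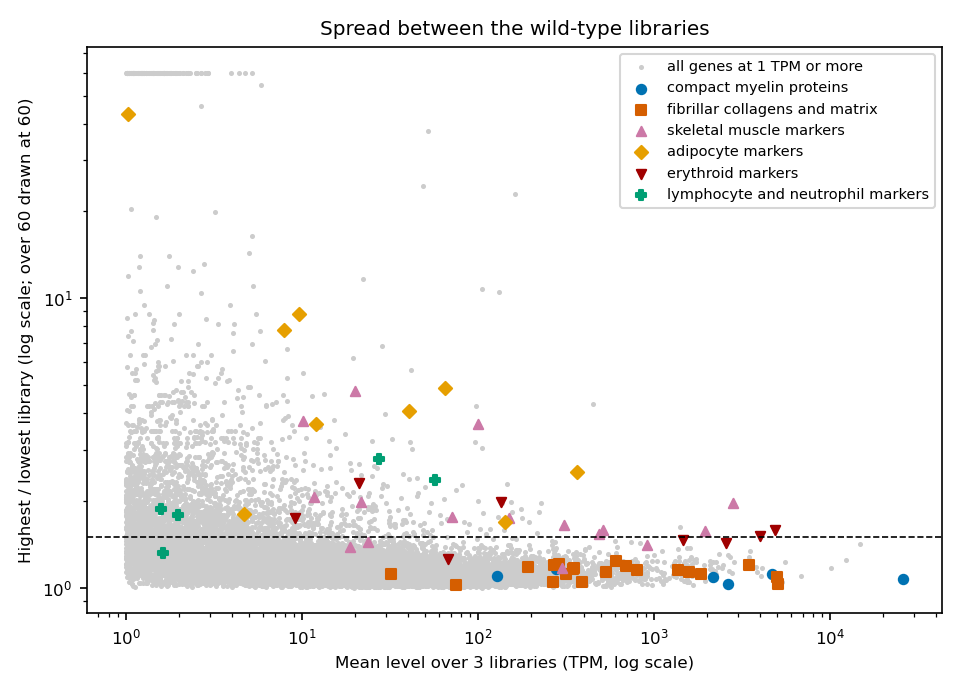
Ratio of the highest to the lowest WT library against mean TPM (both log axes) for genes at 1 TPM or more (a few not drawn), with 6 lists in colour and the 1.5-fold line dashed. Compact myelin and matrix genes lie under the line. At 10 TPM or more, 12 of 16 muscle, 5 of 5 adipocyte and 4 of 7 erythroid markers lie above it, among 284 genes (2.79%) in all.

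The genes that differed most between libraries were mainly genes of muscle. Myh7, the slow myosin of muscle, read 129.4, 3.42 and 24.4 TPM, a 37.9-fold range. Myl2, a slow myosin light chain, read 357.9, 15.6 and 115.2 TPM. Both were highest in WT replicate 1 and lowest in WT replicate 2, and so were Myl3, Mb, Tnnt1, Tnnc1, Myl6b, Smtnl1, Tnni1 and Myh2. Together these are 10 of the 15 genes with the widest range at 10 TPM or more. The 16 genes of the muscle list had no single order: 8 were highest in WT replicate 1, 1 in WT replicate 2 and 7 in WT replicate 3. The shares over protein-coding genes at 10 TPM or more were 54.23%, 23.75% and 22.01%. Mylpf, a light chain of fast fibres, read 1750, 1587 and 2494 TPM, while Atp2a1, the calcium pump of fast fibres, read 196.0, 112.6 and 139.4 TPM. The fast myosin gene Myh1 read 14.8, 29.3 and 20.9 TPM and was the gene highest in WT replicate 2. Acta1, the skeletal actin, read 3564, 1823 and 2996 TPM and ranked 13. Of 16 muscle markers, all at 10 TPM or more, 12 were past 1.5-fold, beside 2.79% of all genes at that level. In WT replicate 2, 14 of the 16 were lowest, beside 43.3% of protein-coding genes at 10 TPM or more.

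Adipocyte genes set WT replicate 3 apart. Cfd (adipsin) read 34.5, 27.5 and 134.1 TPM and Adipoq (adiponectin) 18.98, 25.98 and 77.12 TPM. Over all genes at 1 TPM or more, 13.9% were past 1.5-fold and 22.6% were highest in WT replicate 3. Of 9 adipocyte markers at that level, all 9 were past 1.5-fold and 8 were highest in WT replicate 3. The exception, Car3, which muscle also makes, read 505.5, 201.6 and 390.2 TPM. Neutrophil genes set WT replicate 2 apart. S100a9 read 37.9, 89.6 and 44.0 TPM, S100a8 16.7, 46.6 and 19.2 TPM, and Ngp, a granule protein, 5.63, 26.3 and 8.10 TPM. Globin and other erythroid genes summed to 15919, 13072 and 10498 TPM, highest in WT replicate 1. Alas2, which starts haem synthesis in red cells, read 191.1, 119.8 and 96.8 TPM. The membrane gene Slc4a1 had another order, at 18.0, 31.9 and 13.9 TPM. The globin genes share 53.2 to 89.3% of their 50-base words with a sister gene, so their split is uncertain. The part of these tissues in other differences between the libraries was not tested.

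**Figure D4:**
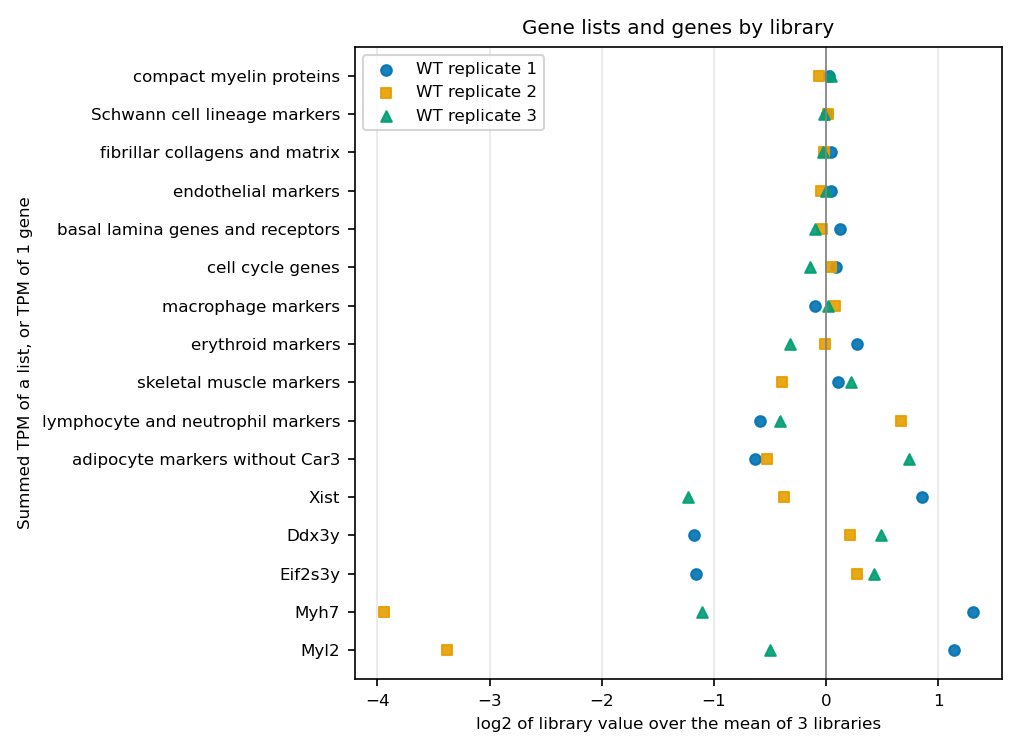
log2 ratio of each WT library to the mean of the 3 for the summed TPM of 11 lists and for 5 single genes, 1 symbol per library. Compact myelin, lineage and matrix lists stay near 0, the slow muscle genes Myh7 and Myl2 spread widest, and Xist and the Y-linked genes have opposite orders.

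Transcripts of the sex chromosomes varied too. Xist, expressed from the inactive X chromosome of females, read 176.6, 75.3 and 41.6 TPM. The Y-linked Ddx3y read 18.1, 47.5 and 57.5 TPM and Eif2s3y 18.96, 51.33 and 57.01 TPM. Both kinds were present in each library, and they had opposite orders, with WT replicate 1 highest for Xist and lowest for the Y-linked genes. Whether the balance of sexes moved with other differences between the libraries was not tested.

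WT replicate 1 also differed from the others with the exonic length of the gene. Among protein-coding genes at 10 TPM or more, the median log2 ratio of WT replicate 1 to WT replicate 2 went from -0.12 for 224 genes under 1000 bases to 0.13 for 1519 genes over 8000 bases. Against WT replicate 3 it went from -0.10 to 0.12. WT replicates 2 and 3 differed by at most 0.03 in any length bin. WT replicate 1 was the highest library for 16.1% of the shortest genes and 78.3% of the longest, and for 54.2% of all 9094. All 13 basal lamina genes, with a median length of 8272 bases, were highest in WT replicate 1. After each library was centred on genes of like length, 9 of the 13 were, and the share of all 9094 genes became 35.2%. For promyelinating regulators the number highest in WT replicate 1 went from 12 of 16 to 6, and for the 74 Schwann genes at 1 TPM or more from 47 to 35. Among macrophage genes, 13 of 16 were lowest in WT replicate 1 before the correction and 14 after, beside 20.2% and 35.2% of protein-coding genes at 10 TPM or more. Among cell cycle genes, 20 of 21 were lowest in WT replicate 3 both before and after, beside 36.5% and 31.1%, although the number highest in WT replicate 1 went from 13 to 6. The size of these differences was small, with summed TPM of 1590, 1800 and 1718 for macrophage genes and 1512, 1467 and 1283 for cell cycle genes. What sets the length trend was not tested.

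**Figure D5:**
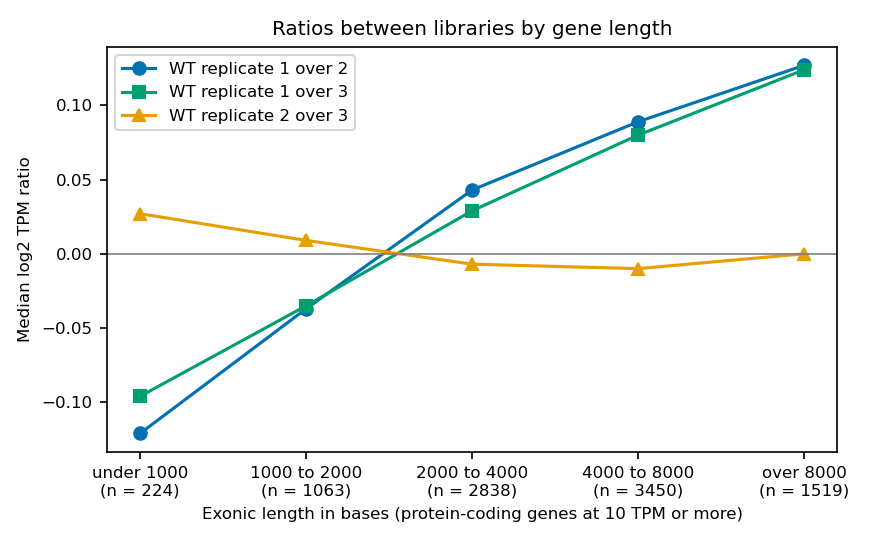
Median log2 ratio of TPM between pairs of WT libraries by exonic length, for protein-coding genes at 10 TPM or more. Ratios of WT replicate 1 to the others climb from about -0.1 under 1000 bases to about 0.12 over 8000 bases, and the ratio of WT replicates 2 and 3 stays near 0.

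Levels of genes with near-identical copies are uncertain. Gapdh, an abundant glycolytic gene, read 3.604, 2.824 and 2.750 TPM, and 25.1% of its 50-base words occur in another gene. Ppia and Pgk1 were also low, at 11.99 ± 1.03 and 5.16 ± 0.677 TPM (SD, n = 3), with 17.3% and 53.9% of words shared. Tpt1 averaged 116 ± 16.4 TPM while its processed pseudogene Tpt1-ps3, all of whose words occur in Tpt1, averaged 10117 ± 780 TPM. Pseudogenes took 19.2, 21.7 and 20.8% of TPM in the 3 libraries. Such genes are listed with their deposited counts, and their true levels are uncertain. Of 408 list members found, 68 shared over 10% of their words and 42 had over 10% of their exonic bases in exons of another gene. The latter include Cdkn1c at 30.65%, Dhh at 25.16% and Ccnd1 at 23.36%.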

How the data were processed

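Sciatic nerve RNA of 3 WT mouse samples was measured by sequencing. The authors deposited raw fragment counts for each gene. Per the file headers, featureCounts 1.6.1 assigned pairs with both ends aligned and mapping quality of at least 20 to exons of Ensembl release 95 (GRCm38), ignoring strand, so antisense partners cannot be told apart. Subread 2.0 and DESeq2 1.3 are listed in the submitters' processing notes. Aligner settings: not given in the sources used here. Deposited exonic length, in bases, was used for TPM. It is given per gene and is not the length of the transcripts present, so ratios of TPM between genes depend on it.

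Of 54838 rows, 54809 matched a symbol in GENCODE M21. The 37 mitochondrial genes had 0 counts. TPM, medians and ratios were computed in Python 3.11.15 with pandas 2.3.3. Spread was estimated with edgeR 4.0.16 (R 4.3.3, filterByExpr minimum count 10, TMM factors, no groups), with DESeq2 1.42.0 size factors as an alternative. The TPM and spread steps were tested on simulated counts. No test between groups was run and there are no p-values. Counting limits cover counting error only, since fragments without molecular identifiers are not independent molecules.

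All 409 genes of 30 lists could be named (408 were found, 365 at 1 TPM or more), with the 30 highest genes, the 15 with the widest range at 10 TPM or more and the 10 at 100 TPM or more. Xist, Ddx3y and Eif2s3y were chosen after their values were seen. Members and lists were chosen with earlier results of these data known. A few list members are counted in the lists and sums but not reported singly here.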

Additional observations from a re-analysis of the deposited data

How the results depend on the processing

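No paired analysis was possible because all 3 libraries belong to 1 group. With 200 bases taken off each length, the summed TPM was 68649 for the Schwann class, 21433 for fibroblast and 1806 for vascular genes, and the 100 highest genes took 33.5% of TPM. With protein-coding genes alone as the denominator, an alternative chosen after seeing the data, the sums were 103541, 33700, 2746, 2962 for immune and 1152 for axonal genes, and the 100 highest took 27.7%. Without length they took 21.8%. The 2395 genes past 1.5-fold became 284 at 10 TPM or more, 7320 with any gene counted in every library, 1072 at a fold of 2 and 866 among protein-coding genes. Leaving out 1 library gave 1229 (without WT replicate 1) to 1514 (without WT replicate 2), and 1492 without WT replicate 3, where 2 libraries have less room to differ than 3. Of 398 named genes, 286 moved by more than their SD with the shorter length, 361 with the protein-coding denominator and 0 with TMM scaling. Leaving out 1 of 3 libraries cannot move a mean by more than the SD of the 3, so that setting cannot decide this for single genes. With the shorter length, list members at 1 TPM or more stood at 0.812 to 1.31 times their main value, and 0 moved by over 1.5 times. TMM scaling and the protein-coding denominator scale all genes of a library alike, so they do not separate members by that limit. Centring by gene length, also added after seeing the data, left 2372 genes past 1.5-fold. Depth limits genes near 1 TPM, where counting is a large part of the spread.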

Other observations

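Imprinted genes of fetal growth were all measured in the nerve, with a median of 243 TPM over 11 genes and H19 far above the rest. H19, a long noncoding RNA that falls silent in most tissues after birth, read 6849, 6446 and 7081 TPM in WT replicates 1, 2 and 3, and was the highest gene that is neither protein-coding, a pseudogene nor under 200 bases long. Cdkn1c (p57), an inhibitor of the cell cycle, averaged 571 ± 42.5 TPM, Mest 422 ± 33.6 TPM and Dlk1 384 ± 29.3 TPM (SD, n = 3). Plagl1, a transcription factor of the imprinted group, read 268.4, 269.2 and 266.9 TPM. All 11 genes of the list exceeded 50 TPM. None was past 1.5-fold between libraries, as was so for most genes, since 2.79% of all genes at 10 TPM or more were past it. Igf2, the neighbour of H19, averaged 76.6 ± 7.59 TPM, with 64.6% of its exonic bases in exons of another gene.

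Rps3a3, a copy of a ribosomal protein gene that shares 65.2% of its 50-base words with other genes, read 183.8, 792.1 and 382.7 TPM, the widest range among genes at 100 TPM or more outside muscle. The short gene Gm23935, of 57 bases and the microRNA class in the annotation, read 16408, 11612 and 16316 TPM, and all of its words occur in another gene.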
